A study of Mus musculus with 12 samples.

Results

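A set of 10 genes of innate immunity were followed in the hypothalamus, with the gastrocnemius, a calf muscle, beside it, in mice carrying a cachexia-inducing tumour and in mice without one. The genes were taken by name: C1qa, C1qb, C1qc, C3 and C4b, which encode complement components, and Tmem119, P2ry12, Cx3cr1, Aif1 and Csf1r, which are widely used as markers of microglia and other macrophages. All 10 were found among the 55416 gene identifiers of the deposited tables, and each matched 1 identifier. The mice were male BALB/c, 7 weeks old when cells of the BALB/c colon carcinoma line CT-26 were injected under the skin of the abdomen. The tissues of CT-26 mice were taken on day 25 after the injection. Control mice were labelled as having had no tumour injection, and no mock injection is named for them. The labels give no collection day for control mice, so equal age at collection could not be checked. Each of the 4 groups (CT-26 and control, hypothalamus and gastrocnemius) held 3 libraries from 3 mice, numbered alike in both tissues, so that 6 mice gave 12 libraries.

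Complement is a cascade of blood and tissue proteins. C1q, built from equal numbers of the A, B and C chains, binds targets and activates the proteases C1r and C1s, which cleave C4 and C2 to form an enzyme that cleaves C3. Microglia are the resident macrophages of the brain, and they are the main source of C1q messages in the healthy brain; C3 and C4 messages are also made by other cells, astrocytes among them. In skeletal muscle the same C1q genes are expressed by resident macrophages.

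The libraries held 27195316 to 52535761 expected counts in the hypothalamus and 26015741 to 42771331 in the gastrocnemius, where an expected count is the estimated number of fragments assigned to a gene. The neuron marker genes summed to 1887 to 2131 TPM (transcripts per 1000000, a level corrected for transcript length) in hypothalamus libraries and to 2.15 to 3.85 TPM in muscle libraries, and the myofibre marker genes to 17.9 to 37.02 TPM and 71420 to 119000 TPM, so each library matched its labelled tissue. The members were measured in tissue homogenates, in which fewer cells of a type and less RNA per cell cannot be told apart.

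Promoter sequences are given for 4 members because these illustrate the 3 patterns described next: C1qb and C1qc are neighbours that were both higher in the CT-26 hypothalamus, C3 had the largest fold change there, and P2ry12 is a microglial gene that did not pass the test. All 4 lie on the minus strand of GRCm38, the sequences read 5′ to 3′ toward the gene, and they are taken from RefSeq's promoter table for that build and end before the gene's first annotated base. C1qb is shown at chr4:136886201-136886450, C1qc at chr4:136893066-136893164, C3 at chr17:57228137-57228386 and P2ry12 at chr3:59262986-59263235. Capitals mark the core letters bound by PU.1, a transcription factor of macrophages (AGGAAGT or its reverse complement ACTTCCT), in C1qb, C1qc and P2ry12, and the core letters bound by C/EBP factors (TTGCNNAA or its reverse complement) in C3.
C1qb: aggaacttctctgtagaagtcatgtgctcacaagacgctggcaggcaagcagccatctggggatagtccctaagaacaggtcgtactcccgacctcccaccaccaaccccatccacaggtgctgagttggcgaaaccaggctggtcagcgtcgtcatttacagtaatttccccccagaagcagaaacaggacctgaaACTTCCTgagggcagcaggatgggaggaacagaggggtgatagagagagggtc
C1qc: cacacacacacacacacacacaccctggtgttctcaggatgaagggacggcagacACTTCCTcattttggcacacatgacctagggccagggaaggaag
C3: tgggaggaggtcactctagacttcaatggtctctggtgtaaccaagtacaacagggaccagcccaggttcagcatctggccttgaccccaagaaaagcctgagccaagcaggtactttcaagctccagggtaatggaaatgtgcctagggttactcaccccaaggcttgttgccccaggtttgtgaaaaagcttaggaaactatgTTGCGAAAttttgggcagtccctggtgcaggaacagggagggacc
P2ry12: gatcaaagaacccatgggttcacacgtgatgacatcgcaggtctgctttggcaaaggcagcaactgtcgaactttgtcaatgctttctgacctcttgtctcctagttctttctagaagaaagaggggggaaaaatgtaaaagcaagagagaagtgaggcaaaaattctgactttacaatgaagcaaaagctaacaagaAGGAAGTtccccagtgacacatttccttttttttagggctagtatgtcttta
Of the 10 members, 6 had a promoter in the table: C1qb, C1qc, C3, P2ry12, Cx3cr1 and Aif1. In windows of 250 bases before the RefSeq start, searched on both strands, the PU.1 letters occurred in C1qb, C1qc and P2ry12 and in 7.69% of 32851 promoters; the C/EBP letters occurred in C3 and P2ry12 and in 9.56%, and the 2 motifs do not overlap in P2ry12. Both motifs were chosen with these sequences in view, and a match is a description of letters.

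In the hypothalamus, the 5 complement members were higher in CT-26 than in control mice and none of the 5 microglia and macrophage markers passed the test. The 3 C1q chains, C3 and C4b were called by edgeR's quasi-likelihood test (adjusted p below 0.05), against 3.94% of the 17961 genes tested that were called higher and 8.77% called in either direction. Their CPM ranges (CPM being counts per 1000000 counts of the library, with TMM factors correcting for composition) lay above the controls without overlap, as did those of 14.7% of all genes. No member was called lower, against 4.83% of all genes; 3 of the 10 were lower at an unadjusted p below 0.05, and DESeq2 also called none lower. The median log2 fold change of the 10 was 0.17, beside -0.003 for all genes tested.

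**Figure D1:**
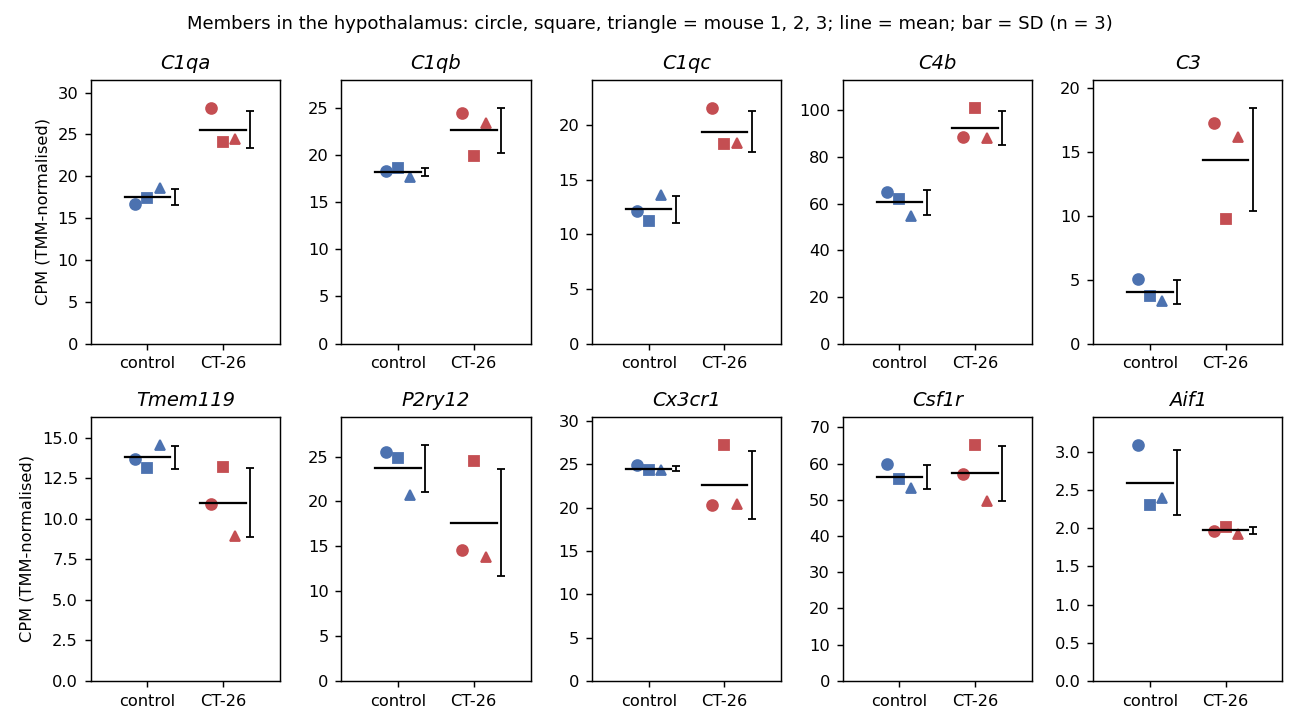
Level of each member in the 6 hypothalamus libraries, in TMM-scaled CPM, with the mean (line) and SD (bar) of each group of 3 mice. All CT-26 values of C1qa, C1qb, C1qc, C4b and C3 lie above all control values, and CT-26 mouse 2 (square) has the highest CT-26 values of Tmem119, P2ry12, Cx3cr1, Csf1r and Aif1.

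C1qa, the A chain (GRCm38 chr4:136895917-136898803, minus strand), had 16.7, 17.4 and 18.6 CPM in control mice 1 to 3 and 28.2, 24.1 and 24.5 CPM in CT-26 mice 1 to 3. Every CT-26 library was above every control library, and the log2 fold change was 0.54 (SE 0.082, adjusted p = 0.003668), a 1.46-fold higher mean (CPM 25.6 ± 2.24 against 17.6 ± 0.951, SD, n = 3 each). C1qc, the C chain, had 12.1, 11.2 and 13.7 CPM in controls and 21.6, 18.3 and 18.4 CPM in CT-26 mice. Its groups did not overlap either, with a log2 fold change of 0.66 (SE 0.098, adjusted p = 0.003411).

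C1qb, the B chain, had 18.3, 18.6 and 17.7 CPM in controls and 24.5, 19.9 and 23.4 CPM in CT-26 mice. CT-26 mouse 2 was closest to the controls. The log2 fold change was 0.31 (SE 0.085, adjusted p = 0.04464), and leaving out any 1 library other than CT-26 mouse 2 ended the call (adjusted p from 0.07878 to 0.1411; 0.01423 without that mouse). The other 4 calls held whichever library was left out. The 3 chains were not in equal message amounts: in TPM, C1qc was 0.535 to 0.612 of C1qa in controls and 0.627 to 0.638 in CT-26 mice, and C1qb was 0.899 to 1.03 and 0.779 to 0.904 of C1qa.

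C3, the central component on which the activating routes converge (chr17:57203970-57228136, minus strand), had 5.05, 3.75 and 3.30 CPM in controls and 17.3, 9.77 and 16.2 CPM in CT-26 mice. The groups did not overlap and the lowest CT-26 value was that of mouse 2. The log2 fold change was 1.84 (SE 0.22, adjusted p = 9.958e-04), a 3.58-fold difference and the largest of the 10 members. In the limma fit of log2(TPM + 0.5) it was 1.57 with an adjusted p of 0.08443. C1qb (adjusted p = 0.1116) and C4b (0.09106) did not pass in that limma fit either. The effective length that the deposited tables assign to C3, which enters TPM but not CPM, ran from 1806 to 4902 bases among the 6 libraries. The part of this length in the lost C3 call was not tested.

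C4b, one of the mouse C4 genes (chr17:34728380-34743882, minus strand), had 64.8, 62.1 and 54.6 CPM in controls and 88.4, 101.0 and 88.3 CPM in CT-26 mice. The groups were apart, with a log2 fold change of 0.61 (SE 0.074, adjusted p = 0.001158). Its near-identical neighbour C4a can share reads with it, and RSEM divides such reads by probability, so the split between both genes is uncertain. C4a held 6.93 to 7.05% of the summed C4a and C4b counts in controls and 3.81 to 4.61% in CT-26 mice, and its own log2 fold change was -0.18 (adjusted p = 0.43).

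The 5 microglia and macrophage markers did not pass the test, with log2 fold changes from -0.44 to 0.02. P2ry12, the ADP receptor that guides microglial processes, had 25.5, 24.8 and 20.7 CPM in controls and 14.6, 24.5 and 13.8 CPM in CT-26 mice. CT-26 mice 1 and 3 were below all controls and mouse 2 was within their range. The log2 fold change was -0.44 (SE 0.18, adjusted p = 0.1699); without CT-26 mouse 2 it was -0.73 (adjusted p = 0.002726). Tmem119, a membrane protein of microglia with unsettled function, had 13.7, 13.2 and 14.5 CPM in controls and 10.9, 13.2 and 8.90 CPM in CT-26 mice, with mouse 2 again within the control range. Its log2 fold change was -0.34 (SE 0.13, adjusted p = 0.1306), and -0.47 (adjusted p = 0.03933) without that mouse.

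Aif1, which encodes the calcium-binding protein Iba1, had 3.08, 2.31 and 2.40 CPM in controls and 1.97, 2.02 and 1.93 CPM in CT-26 mice. Its groups did not overlap, with CT-26 below, but it rests on 55 to 101 counts a library and did not pass (log2 fold change -0.40, SE 0.17, adjusted p = 0.1827). Ranges that do not overlap in CPM occurred in 30.3% of all genes tested and in 6 of the 10 members. Cx3cr1, the receptor for the neuronal chemokine fractalkine, had 24.3 to 24.9 CPM in controls and 20.3, 27.2 and 20.4 CPM in CT-26 mice (log2 fold change -0.12, SE 0.11, adjusted p = 0.5185). Csf1r, the receptor for CSF1 and IL-34 on which microglia depend, had 53.2 to 59.8 CPM in controls and 57.1, 65.0 and 49.7 CPM in CT-26 mice (log2 fold change 0.02, SE 0.088, adjusted p = 0.9103). The exons of Csf1r overlap those of Hmgxb3 on the opposite strand, so reads of both genes cannot be told apart if the counting ignored strand; Hmgxb3 did not pass in the hypothalamus (log2 fold change -0.07, adjusted p = 0.5696) or in the gastrocnemius (0.06, adjusted p = 0.7361).

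C1q messages were higher relative to the markers in each CT-26 library of both tissues. In the hypothalamus, the summed TPM of the 3 C1q chains divided by that of the 5 markers was 0.890, 0.979 and 1.09 in control mice 1 to 3 and 1.94, 1.24 and 1.78 in CT-26 mice 1 to 3. Every CT-26 value was above the controls, and mouse 2 had the lowest. In the gastrocnemius the ratio was 4.829, 5.252 and 5.395 in control mice 1 to 3. It was 8.899, 8.454 and 10.07 in CT-26 mice 1 to 3, again without overlap, although no C1q gene was called there. The marker sum in muscle was only 2.07 to 6.15 TPM a library. It included Tmem119, which was called lower there, and Aif1, with 3 to 20 counts a library. The effective length of Aif1, which enters TPM, ran from 222.7 to 615.7 bases among the muscle libraries. This ratio is a description, as its genes were chosen together, and no share over other genes was computed for it.

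Other complement genes of the hypothalamus were mixed in direction. Of 10 tested genes of initiation, 4 rose and 1 fell, with a median log2 fold change of 0.08. Over all genes tested, 3.94% were called higher and 4.83% lower. C1ra and C1s1, which encode the proteases bound to C1q, rose by 1.68 (SE 0.25, adjusted p = 0.003311) and 1.01 (SE 0.24, adjusted p = 0.02709) on the log2 scale, from 0.542 to 0.621 CPM to 1.58 to 2.49 CPM for C1ra and from 0.746 to 0.768 CPM to 1.32 to 1.98 CPM for C1s1. C2, the second substrate of C1s, rose by 0.66 (adjusted p = 0.018) and Cfb, the protease of the alternative route, by 1.23 (adjusted p = 0.004561). Cfp, which encodes properdin, a stabiliser of the alternative route's enzyme, fell by 0.76 on the log2 scale (adjusted p = 0.002665). C1s2 did not pass (log2 fold change 0.13, adjusted p = 0.8656), and C1rb had too few counts to be tested. The call of C1s1 held when CT-26 mouse 3 was left out and was lost without any other library (adjusted p from 0.05391 to 0.08363), and C2 did not pass when CT-26 mouse 3 (0.05663) or control mouse 2 (0.06808) was left out.

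Among 11 tested regulators, 2 rose and 1 fell. This count and those of the receptors and terminal components stand beside 3.94% of all genes called higher and 4.83% lower. Among them, Cd46, a membrane cofactor, rose by 0.55 (adjusted p = 0.009454), and Clu, clusterin, fell by 0.29 on the log2 scale (adjusted p = 0.01024). Of 5 tested receptors, C5ar1, the receptor of the fragment C5a, rose by 2.59 (SE 0.49, adjusted p = 0.01131), from at most 0.254 CPM to at least 0.572 CPM. It passed the count filter only through its CT-26 libraries, so its call is a description. DESeq2 gave it no adjusted p and called 0 of the receptors. C3ar1, the receptor of C3a, had a log2 fold change of 0.85 that did not pass (adjusted p = 0.05902). Without control mouse 2 the calls of Clu (-0.26, adjusted p = 0.05407) and C5ar1 (2.21, adjusted p = 0.05281) were lost, and without control mouse 1 C3ar1 was called (1.14, adjusted p = 0.02169). Of 3 tested terminal components edgeR called 0, with 1 at an unadjusted p below 0.05 and 0 by DESeq2.

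The genes listed beside the markers were counted against the 8.77% of all genes called in either direction. Of 13 other homeostatic microglia genes, 1 rose (Mertk, a receptor for the uptake of dying cells, by 0.59, adjusted p = 0.01009) and none fell, with 2 lower at an unadjusted p below 0.05, none lower by DESeq2 and a median of -0.17; without CT-26 mouse 2 or control mouse 3, 1 was called lower. Siglech and Trem2 had log2 fold changes of -0.20 and -0.36 (adjusted p = 0.4579 and 0.3122). Of the 3 ligands, Csf1, Il34 and Cx3cl1, edgeR called 0, with 1 at an unadjusted p below 0.05 and 0 by DESeq2; their log2 fold changes were 0.11, -0.02 and -0.15. Of 17 tested genes of activated microglia, 3 rose and 1 fell: Ch25h, an oxysterol-producing enzyme, by 3.23 (adjusted p = 7.179e-04), the cytokine Il1b by 2.56 (adjusted p = 0.005902) and Spp1, osteopontin, by 0.66 (adjusted p = 0.03836), while Cd9, a tetraspanin also made by oligodendrocytes, fell by 0.53 on the log2 scale (adjusted p = 0.01335). The Spp1 call was lost without any 1 of the 6 libraries (adjusted p from 0.05682 to 0.1224), and that of Cd9 without CT-26 mouse 1 (0.0534) or 3 (0.05257).

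**Figure D2:**
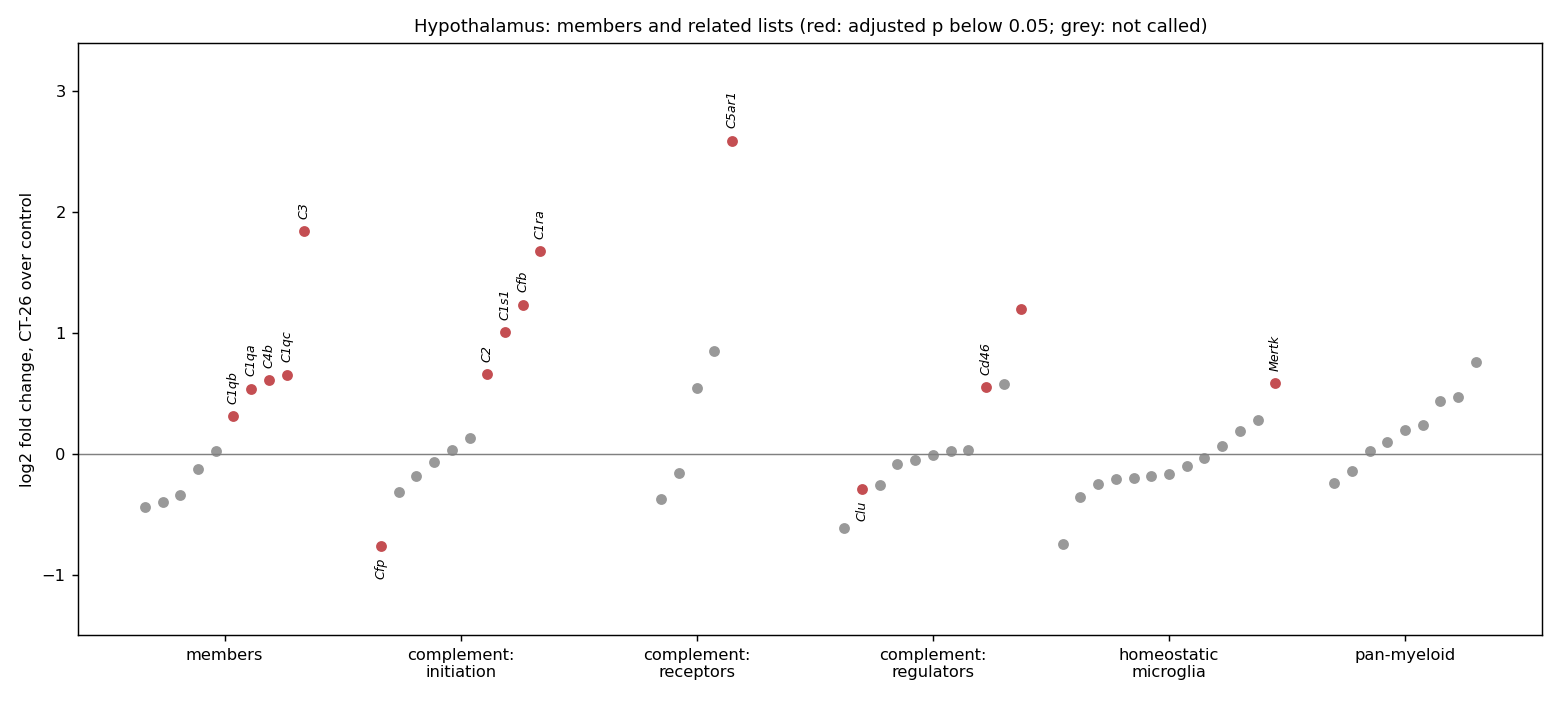
Log2 fold change of each tested gene of 6 lists in the hypothalamus, CT-26 over control, ordered by value within a list; red points passed the test and carry a name where the text gives one. In the member list 5 genes are red and all 5 are complement genes; in the homeostatic microglia list 1 of 13 is, and in the pan-myeloid list 0 of 9.

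Markers of blood and infiltrating cells moved with the same comparison. The counts of this paragraph stand beside 3.94% of all genes tested in the hypothalamus called higher and 4.83% called lower. Neutrophil markers summed to 3.02 to 4.12 TPM in controls and to 286.5, 85.7 and 26.5 TPM in CT-26 mice 1 to 3 (6 of 8 tested rose). In control hypothalamus libraries 2 to 4 of the 10 listed neutrophil genes were at 0, and Cxcr2 was at 0 in every one. Genes that low could be tested only through CT-26 libraries, so the neutrophil count is a description. Monocyte markers summed to 16.4 to 16.9 TPM and 25.9 to 28.6 TPM (3 of 6 rose), border macrophage markers to 4.39 to 4.74 TPM and 7.58, 12.2 and 7.35 TPM (2 of 7 rose, with Mrc1 at 0.65 and Cd163 at 0.55, neither called), and erythroid genes to 714.2 to 1127 TPM and 1536 to 2140 TPM (5 of 5 rose). The pan-myeloid genes overlapped, at 77.2 to 85.3 TPM and 73.2 to 97.6 TPM; edgeR called 0 of 9, with 3 higher at an unadjusted p below 0.05 and 0 by DESeq2. Without CT-26 mouse 1, which had the highest neutrophil sum, the log2 fold changes were 0.47 for C1qa (adjusted p = 0.01626), 0.57 for C1qc (0.01859), 1.70 for C3 (0.007372) and 0.64 for C4b (0.005723), each still called, and 0.26 for C1qb (0.1411), which was not called. The neutrophil sums of CT-26 mice 2 and 3 also lay above those of the controls, so this fit cannot tell the part of these cells. Oligodendrocyte markers were called lower for 5 of 8, and of 10 astrocyte markers 2 were higher and 3 lower, with Gfap at -0.30 (adjusted p = 0.1635). The part of these cell types in the member values was not tested.

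Over the 6 hypothalamus libraries, the genes whose log2 CPM was most like the mean of the 3 C1q chains were Gm49668 (r = 0.9971), Angptl4 (0.997), Kcnt1 (0.9968), Slc37a4 (0.9968) and Dnajc11 (0.996), among 14098 genes compared. C3 ranked 306 (r = 0.9454) and C4b ranked 1267 (r = 0.8358), whereas Csf1r stood at -0.04 and Cx3cr1, Tmem119, P2ry12 and Aif1 between -0.60 and -0.81. The 6 points share the contrast of CT-26 and control, so these values describe that contrast as much as anything within groups.

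In the gastrocnemius, 8 of the 10 members had enough counts to be tested, 1 was called lower and none higher. The lower gene was Tmem119, and 18.3% of the 14265 genes tested were called lower, 19.6% higher and 38.0% in either direction. At an unadjusted p below 0.05, 2 members were higher, C3 and C4b, and DESeq2 called these 2 higher. The CPM ranges of the groups did not overlap for 2 of the 8, C3 (CT-26 above, as for 26.3% of all genes) and Tmem119 (CT-26 below, as for 25.3%), against 51.7% of all genes. The median log2 fold change of the 8 was 0.22, beside -0.002 for all genes; scaling by library totals moved the median of all genes to 0.20 and TPM moved it to 0.28, so muscle fold changes on those scales are read against that shift.

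**Figure D3:**
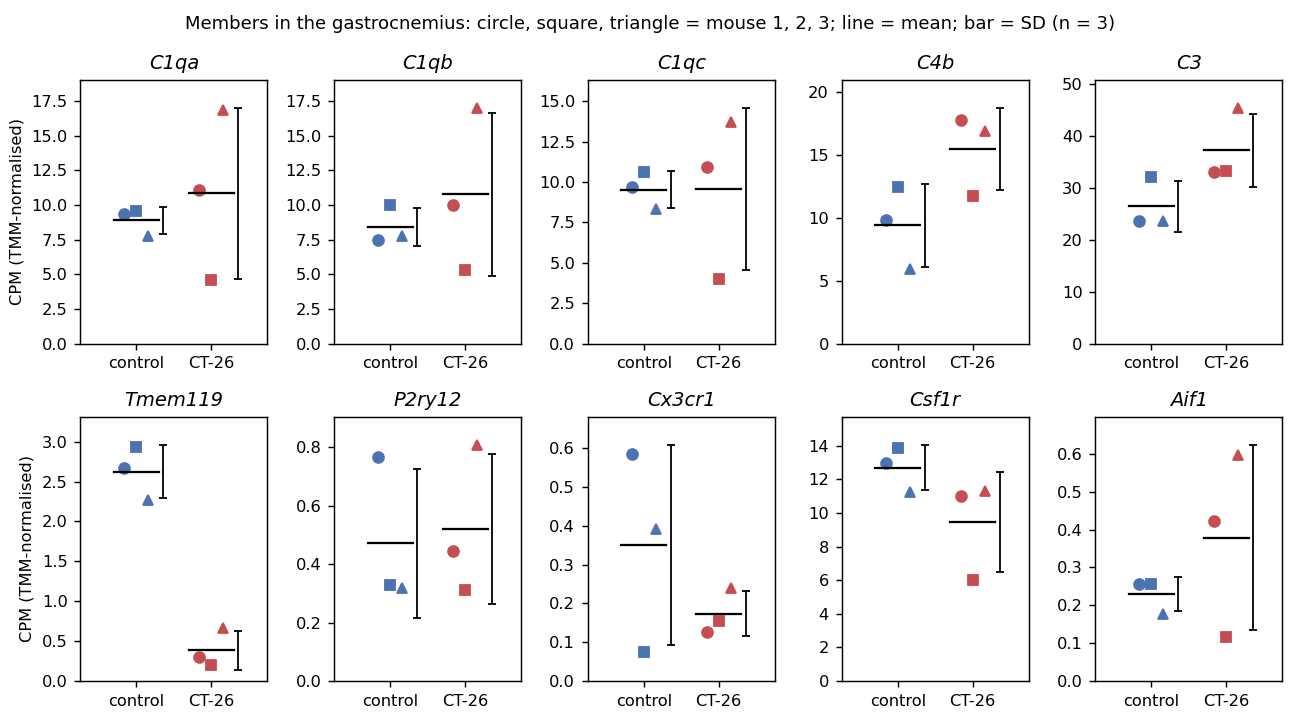
Level of each member in the 6 gastrocnemius libraries, in CPM after TMM scaling, with the mean (line) and SD (bar) of each group of 3 mice. Tmem119 separates the groups with CT-26 below, and CT-26 mouse 2 (square) has the lowest C1qa, C1qb, C1qc and Csf1r of all 6 libraries.

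Tmem119, known in other tissues as a gene of bone-forming cells too, had 2.67, 2.93 and 2.27 CPM in control muscle and 0.297, 0.194 and 0.658 CPM in CT-26 muscle. The groups did not overlap, and the log2 fold change was -2.75 (SE 0.39, adjusted p = 0.001387), 6.74-fold lower, from 64 to 80 counts a library to 5 to 22. It was called lower under all 14 alternatives run for this tissue. Beside it, fibroblast markers were called lower for 7 of 8 tested, against 18.3% of all genes. Their summed levels were 328.8 to 554.2 TPM in controls and 259.5 to 282 TPM in CT-26 mice, with none at 0. The part of these markers in the Tmem119 value was not tested.

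C1qa varied among CT-26 muscles. It had 9.35, 9.57 and 7.78 CPM in controls and 11.1, 4.57 and 16.9 CPM in CT-26 mice. CT-26 mouse 2 was below all controls and the other CT-26 mice above them. The log2 fold changes of C1qa, C1qb and C1qc were 0.29, 0.36 and 0.01 (SE 0.36 to 0.38, adjusted p from 0.4525 to 0.9813); without CT-26 mouse 2, C1qa was at 0.64 and called (adjusted p = 0.03855). In pan-myeloid genes the same library was at 13.7 TPM, within the control range of 13.3 to 16.3 TPM, beside 55.0 and 40.3 TPM in CT-26 mice 1 and 3.

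C3 had 23.6, 32.1 and 23.7 CPM in control muscle and 33.1, 33.3 and 45.4 CPM in CT-26 muscle. The groups were apart, with control mouse 2 close to the lowest CT-26 value, and the log2 fold change of 0.49 (SE 0.18, adjusted p = 0.05896) did not pass. C4b had 9.86, 12.4 and 5.90 CPM in controls and 17.8, 11.7 and 16.9 CPM in CT-26 mice, which overlapped, with a log2 fold change of 0.72 (SE 0.27, adjusted p = 0.064). Without CT-26 mouse 2 both were called, C3 at 0.56 (adjusted p = 0.04971) and C4b at 0.88 (adjusted p = 0.03143). Without control mouse 2 both were also called, at 0.65 (adjusted p = 0.0388) and 0.97 (adjusted p = 0.03798).

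Of the remaining markers, P2ry12, Cx3cr1 and Aif1 were low in muscle. Csf1r had 11.2 to 13.9 CPM in controls and 11.0, 6.0 and 11.3 CPM in CT-26 mice (log2 fold change -0.42, adjusted p = 0.1862). P2ry12 rested on 8 to 27 counts a library (log2 fold change 0.15, SE 0.49, adjusted p = 0.8252), and the gene Med12l, whose exons overlap it on the opposite strand, fell by 1.90 on the log2 scale (adjusted p = 0.01321), so reads of that gene could enter P2ry12 if the counting ignored strand. Cx3cr1 had 2 to 16 counts a library and Aif1 3 to 20, and neither was tested. Of 11 tested initiation genes of the muscle, 2 rose and 2 fell, with a median log2 fold change of -0.35, against the 38.0% of all genes called. C2 (-1.46, adjusted p = 0.006844) and Cfd, the adipocyte product factor D (-2.37, adjusted p = 3.011e-04), fell, and Masp1 (1.19, adjusted p = 0.003812) and Masp2 (1.05, adjusted p = 0.03373), proteases of the lectin route, rose. C1ra and C1s1 did not pass (log2 fold changes -0.35 and -0.47). Masp2 did not pass when CT-26 mouse 1 or 2 or control mouse 1 or 2 was left out (adjusted p from 0.06449 to 0.1186), and C1s1 was called lower without CT-26 mouse 3 (-0.65, adjusted p = 0.03572).

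The other complement genes of the muscle were mixed in direction. The counts of this paragraph stand beside 19.6% of all genes tested in muscle called higher and 18.3% called lower. Of 4 tested receptors, 3 rose, with a median log2 fold change of 1.31: Itgam, a subunit of complement receptor CR3 (1.71, adjusted p = 0.02485), its partner Itgb2 (1.27, adjusted p = 0.02978) and C5ar1 (1.35, adjusted p = 0.03311). All 3 calls were lost without CT-26 mouse 1 or any 1 control mouse, and those of C5ar1 and Itgb2 also without CT-26 mouse 3 (adjusted p from 0.05088 to 0.1143). Both tested terminal components fell, C7 by 1.54 (adjusted p = 0.02855) and C8g by 1.41 (adjusted p = 0.01593) on the log2 scale, but neither was called without CT-26 mouse 1 or control mouse 1, nor C7 without CT-26 mouse 3 or control mouse 2 (adjusted p from 0.05767 to 0.09802). Of 9 tested regulators, 5 fell, with a median of -0.47, among them Vtn, vitronectin, which blocks the terminal complex, by 0.98 (adjusted p = 0.006434). That call held whichever library was left out, and the count of regulators that fell was 3 without CT-26 mouse 1 or control mouse 2 or 3. Neutrophil markers rose for 7 of 7 tested in this tissue, from 0.87 to 1.24 TPM to 72.6 to 552.9 TPM. In control muscle libraries 3 to 4 of the 10 listed were at 0, and genes that low could be tested only through CT-26 libraries.

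**Figure D4:**
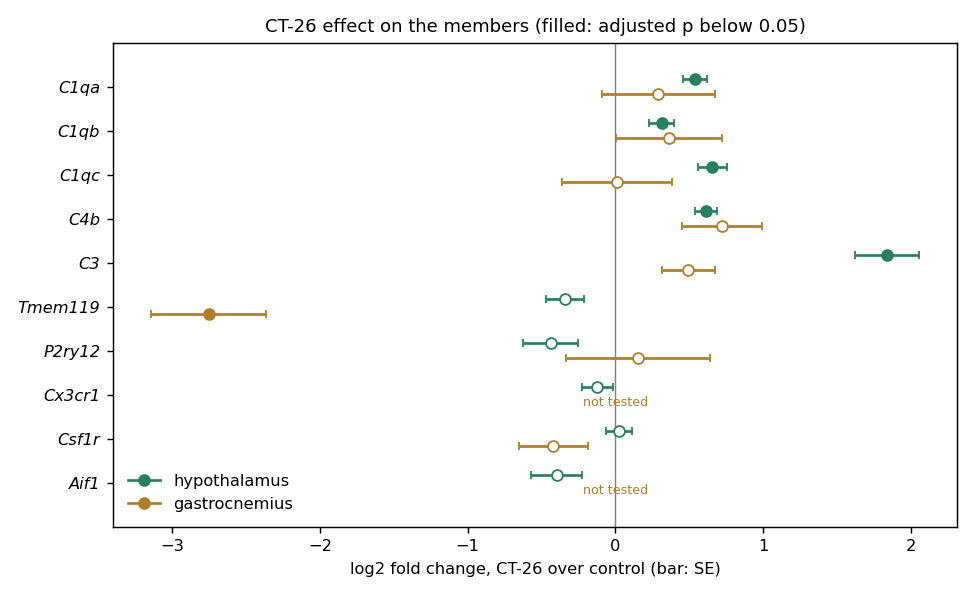
Log2 fold change of each member, CT-26 over control, in the hypothalamus (green) and gastrocnemius (brown), with the SE as a bar; filled points passed the test. Tmem119 in muscle (-2.75) and C3 in the hypothalamus (1.84) lie farthest from 0, and Cx3cr1 and Aif1 were not tested in muscle.

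The effect of CT-26 differed between the tissues for 2 of the 8 members tested in both, against 33.2% of 13572 genes. C3 differed by 1.36 (hypothalamus minus gastrocnemius, SE 0.32, adjusted p = 0.006963) and Tmem119 by 2.44 (SE 0.37, adjusted p = 4.279e-04). The C3 difference did not pass in the TPM fit (0.56, adjusted p = 0.4253) or when control mouse 2 was left out (1.15, adjusted p = 0.05093). The differences of C1qa (0.26, SE 0.42), C1qb (-0.04, SE 0.40), C1qc (0.65, SE 0.42) and C4b (-0.10, SE 0.29) did not pass, and their errors are wide enough that a difference of the size of the hypothalamic effect was not detectable for the C1q genes.

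Levels in control mice place the members. In hypothalamus, in TPM, C1qa (23.3 ± 1.60, SD, n = 3) and C1qb (22.8 ± 0.529) led and did not differ beyond their ranges, followed by C4b (19.5 ± 2.63), P2ry12 (19.2 ± 1.85) and Csf1r (18.6 ± 2.49), which overlapped, then C1qc (13.6 ± 1.49), Cx3cr1 (8.21 ± 0.0781), Tmem119 (7.54 ± 0.690) and Aif1 (7.19 ± 0.614), where the range of Tmem119 overlapped those of both its neighbours and those of Cx3cr1 and Aif1 were apart, with C3 lowest (1.60 ± 0.776). In control muscle C1qa (10.0 ± 2.02), C3 (9.36 ± 2.97), C1qc (8.96 ± 1.81) and C1qb (8.89 ± 1.82) overlapped at the top, and P2ry12 (0.243 ± 0.138) and Cx3cr1 (0.0900 ± 0.0700) were lowest. In the control hypothalamus over control gastrocnemius contrast, 6 of the 10 members were called higher and 2 lower, against 47.7% and 35.7% of 18746 genes (83.4% in either direction).

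**Figure D5:**
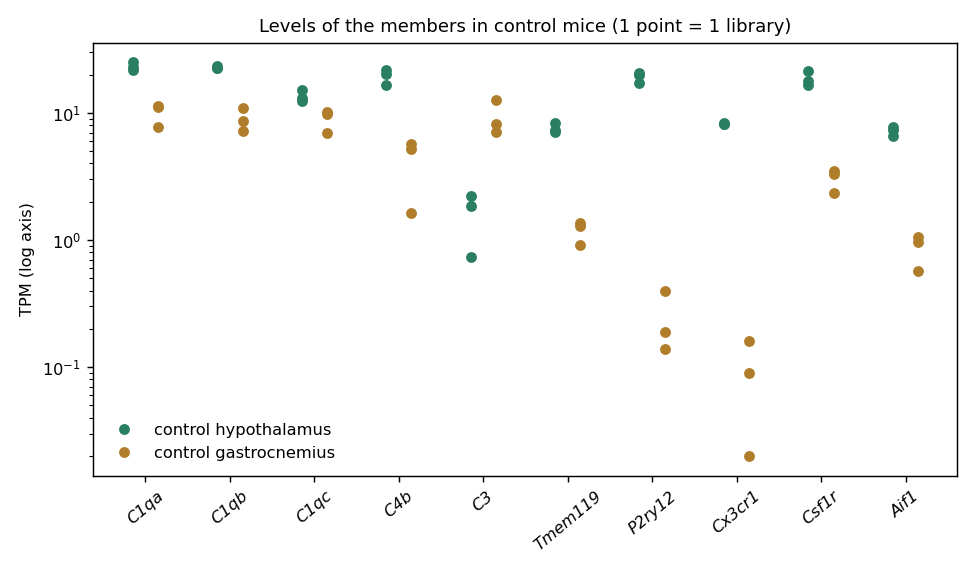
TPM of each member in the 3 control hypothalamus libraries (green) and the 3 control gastrocnemius libraries (brown), on a log axis. P2ry12 and Cx3cr1 show the widest gap between the tissues and C3 is the only member whose muscle values all lie above its hypothalamus values.

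Cx3cr1 (4.91) and P2ry12 (4.44) had the largest log2 differences in favour of the hypothalamus (edgeR adjusted p = 2.955e-09 and 3.428e-08), then Aif1 (2.28), C4b (1.48), Tmem119 (1.18) and Csf1r (0.94), and C3 was lower there by -3.92 (adjusted p = 3.543e-09). These 7 kept their direction and call under the 12 alternatives. Those that leave out a CT-26 mouse are weak checks here, as that mouse enters this contrast only through the shared filter, scaling and spread. The C1q genes depended on the scaling: with TMM, C1qa (-0.23) and C1qb (-0.09) did not pass and C1qc was lower (-0.84, adjusted p = 0.01825), while all 3 had positive values on the library-total and TPM scales. Leaving out control mouse 1 or 2 also ended the C1qc call (-0.81 and -0.69, adjusted p = 0.08622 and 0.1289). TMM put the median of all genes at 0.34, against 1.63 for library totals and 1.13 for TPM, and the direction of C1q between these tissues changed with that choice.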

How the data were processed

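RSEM 1.3.3, STAR 2.7.9a, Trim Galore 0.6.6 and build GRCm38 are the tools and genome named in the submitters' processing notes; per the labels' protocols, libraries came from a directional kit. The deposited tables give expected counts, estimated per gene and not always whole, and TPM, with the effective length in bases as another column; the deposited FPKM values were not used. Which annotation release and strand setting the counting used is not given in the sources used here. GENCODE M21 named 52135 of the 55416 identifiers. Expected counts were rounded and tested with edgeR 4.0.16 in R 4.3.3 (filterByExpr, TMM, quasi-likelihood test, Benjamini-Hochberg over all genes tested), each tissue on its own 6 libraries and the tissue contrasts on all 12. SEs were derived from the fold change and F statistic. The filter asks for enough counts in as many libraries as a group holds, so a gene could enter through 1 group alone. Alternatives used DESeq2 1.42.0, and limma 3.58.1 on log2(TPM + 0.5), other scalings and filters, a mouse block, and each library left out. On simulated data for the hypothalamus, genes changed by 1.5-fold were called in 65.8% of cases among 17759 genes. Of the calls there, 8.72% were of unchanged genes. In the gastrocnemius, among 14059 genes, 1.5-fold changes were called in 0% of 67 cases and 2-fold changes in 47.1%. The simulation changed few genes, whereas 8.77% of hypothalamus genes and 38.0% of muscle genes were called in the data. An adjusted p below 0.05 was therefore harder to reach in the simulation, and its shares do not carry over to the data. Whether muscle changes that did not pass, as for C3 at 1.41-fold and C4b at 1.65-fold, were missed was not tested.

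Replicates differed by more than sampling noise (chi-square divided by genes, 5.86 to 160.1), so each counted once. Both tissues of a numbered mouse come from that mouse, per the labels; the correlations of their deviations from the group means ran from -0.139 to 0.227, and the block changed no member call in the tissue contrasts. The members, lists and tests were chosen with earlier results of these data known. Beside all members, the text draws the genes it names from up to 4 called genes of smallest p per list and tissue, partner genes of the members (C4a, C1ra, C1rb, C1s1, C1s2, C2, C3ar1, Csf1, Il34, Cx3cl1, Trem2, Siglech, Mrc1, Cd163, Ccr2, S100a8, Gfap) and the 5 genes most like C1q among genes whose mean log2 CPM reached 1; Med12l and Hmgxb3 were added for their overlap with P2ry12 and Csf1r. Many called genes of the lists are counted and not reported here by name.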

Additional observations from a re-analysis of the deposited data

Results flagged for a closer look

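The effect of CT-26 differed between the tissues for C3 and Tmem119, by the interaction term of the edgeR fit of all 12 libraries. For C3 the hypothalamus effect minus the gastrocnemius effect was 1.363 on the log2 scale (adjusted p = 0.006963): the hypothalamus effect was 1.84 and the muscle effect 0.49, with CT-26 libraries above controls in 3 of 3 mice in both tissues. For Tmem119 the difference was 2.44 (adjusted p = 4.279e-04): the hypothalamus effect was -0.34 and the muscle effect -2.75, so both were below 0 and the muscle effect was the larger. The Tmem119 difference was called under all 12 alternatives and the C3 difference under 10 of 12.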

How the results depend on the processing

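In the hypothalamus C1qa, C1qc and C3 were each called under 13 of 14 alternatives, C4b under 12 and C1qb under 6; no member changed direction except Csf1r, which was not called. With all 12 libraries in 1 fit, 1 member was called higher, C3, and 108 genes were called higher and 54 lower; with limma on TPM, 2 members (C1qa, C1qc), 209 genes higher and 157 lower. With no filter beyond 1 count, 1307 genes were higher, and 2 members, Tmem119 and P2ry12, were called lower. Leaving out each library gave 283 to 543 genes higher and 293 to 725 lower, 4 to 5 members higher and 0 to 2 lower; the fewest genes were called without control mouse 2.

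In the gastrocnemius, 2 members (C3, C4b) were called higher with library totals, DESeq2, limma on TPM and no filter, and 1 (C4b) with all 12 libraries in 1 fit. Library totals gave 1662 genes lower, limma on TPM 4491 higher and 946 lower, and the fit of all 12 libraries 3984 lower. Leaving out each library gave 1768 to 2779 genes higher and 1779 to 2671 lower, with 0 to 3 members higher and 1 lower; the fewest higher genes came without control mouse 1, and 3 members were higher without CT-26 mouse 2.

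For the difference between tissues, library totals gave 1385 genes higher, and limma on TPM 668 higher, 3878 lower and 1 member higher. Leaving out each mouse gave 1515 to 2083 genes higher, 1448 to 2303 lower and 1 to 2 members higher.

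Between control tissues, library totals gave 13565 genes higher, 2939 lower and 1 member lower, and limma on TPM 13816, 2570 and 1. C1qa, C1qb and C1qc turned to 1.06, 1.20 and 0.45 with library totals and to 1.19, 1.33 and 0.59 with TPM. Leaving out each mouse gave 8465 to 9111 genes higher, 6247 to 6801 lower, and 1 to 2 members lower; C1qc lost its call without control mouse 1 (-0.81, adjusted p = 0.08622) or 2 (-0.69, adjusted p = 0.1289). The causes were not tested.

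With the replicate block, same-numbered CT-26 and control mice being different animals whose deviations correlated at -0.125 to -0.0251 in the hypothalamus and -0.0786 to 0.340 in the gastrocnemius, 506 genes were higher and 605 lower in the hypothalamus, with 4 members higher (C1qb at 0.31, adjusted p = 0.07768), and 2887 and 2834 in the gastrocnemius, with 0 members higher and 1 lower. With the mouse as a replicate block, 1872 and 1725 genes differed between tissues and 8740 and 6508 between control tissues. Counts of 2 to 27 a library limit P2ry12, Cx3cr1 and Aif1 in muscle.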
